A study of Vitis vinifera with 42 samples.

Results

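The genes of ethylene synthesis, ethylene signalling and ethylene response were described in deseeded berries of Vitis vinifera cv. Cabernet Sauvignon. A gene was a member if the KEGG orthology text deposited with it named an aminocyclopropane enzyme, an ethylene receptor, an ethylene-insensitive protein, an EIN3-binding F-box protein, an EREBP-like factor or an ethylene-responsive transcription factor. This rule gave 169 members among 28940 genes. Of these, 130 reached a mean of at least 1 FPKM (fragments per kilobase of transcript and per 1e6 mapped reads) in at least 1 group and were tested, 39 did not, and 2 of the 39 were listed at 0 in every library. An ethylene term stood first in the orthology text of 155 members, but in only 7 of the 20 ACC oxidases, where another dioxygenase often came first.

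Clusters under 3 treatments on own-rooted vines of a commercial vineyard were sampled in 1 season. T2 was the untreated control, labelled CK, with light on the clusters throughout, and was sampled at the modified Eichhorn-Lorenz (E-L) stages 29, 31, 35, 36, 37 and 38, from small green berries through the onset of colour at E-L 35 to harvest at E-L 38. T1 clusters were enclosed in opaque paper bags from E-L 29 until harvest and sampled at every one of these stages from E-L 31 on. T8 clusters were bagged at E-L 35, uncovered at E-L 36 and sampled at E-L 36, 37 and 38. Each of the 14 groups had 3 biological replicates, here A, B and C, and each library came from a pool of berries. In such whole-berry RNA, fewer cells of a type and less RNA per cell cannot be told apart.

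Ethylene is made from S-adenosylmethionine by ACC synthase, which forms 1-aminocyclopropane-1-carboxylate (ACC), and ACC oxidase, which turns ACC into ethylene. In Arabidopsis the unbound receptors keep the kinase CTR1 active. When ethylene binds, EIN2 passes the signal on and the transcription factor EIN3 accumulates, while the F-box proteins EBF1 and EBF2 mark EIN3 for degradation. EIN3 switches on ERF1, a member of the large AP2/ERF family to which the EREBP-like factors belong, and many factors of that family respond to cold, drought or wounding as well as to ethylene. The grape berry is classed as non-climacteric, with no large burst of ethylene at ripening.

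The 169 members fell into 7 ACC synthases, 20 ACC oxidases, 1 ACC deaminase, 8 receptors, 2 EIN2 genes, 4 EIN3 genes, 8 EIN3-binding F-box genes, 6 genes of the term ERF 1 and 113 EREBP-like factors. In these classes 1, 11, 1, 8, 1, 3, 8, 4 and 93 genes were tested. The classes are those of the orthology text, and other annotation of a few members went another way. VIT_212s0059g01380, an ACC oxidase by its term, was described by BLAST as aconitase 2, and the receptors VIT_204s0043g00690 and VIT_207s0005g05040 as the response regulator ARR22. VIT_210s0003g02490, classed with the ACC oxidases, was described by BLAST as cell cycle checkpoint protein RAD17-like. VIT_205s0049g00510, of the orthology term ERF 1, stands among the EIN3-binding F-box genes in a table of the study, and its class here is that of the deposited text only. All 169 members had a best orthology hit, and 117 shared it with at least 1 other member. The files do not say how reads of near-identical copies were divided, so single values within runs of neighbouring genes, such as those numbered VIT_205s0049g00260 to VIT_205s0049g00410, VIT_207s0005g03190 to VIT_207s0005g03260 and VIT_216s0013g00890 to VIT_216s0013g01120, are uncertain.

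Total FPKM was 561036 to 672526 per library, and 21090 to 23537 genes were above 0. Although the berries were deseeded, transcripts of seed storage proteins were present. A seed marker score was taken as the average, in log2(FPKM + 1), over the 6 tested of 12 listed storage protein genes and ranged from 1.23 to 7.59 over the 42 libraries. At pea size, E-L 31, this score averaged 6.95 ± 0.67 (SD, n = 3) in T1 against 4.56 ± 1.39 in T2, where T2 replicate C was at 6.14 and the T2 replicates A and B were at 4.02 and 3.53. At E-L 36 it was 4.73 ± 0.72 in T8, 1.76 ± 0.72 in T2 and 1.98 ± 0.54 in T1, and at E-L 37 it was 4.06 ± 0.11 in T8 and 1.97 ± 0.64 in T2. None of these libraries overlapped between T8 and its comparator or between T1 and T2 at E-L 31, and the two-sided exact permutation p was 0.1, the smallest that 3 against 3 allows. In T1 against T2 at E-L 35 the score was 2.54 ± 1.47 and 2.19 ± 0.21 (exact permutation p = 1.0), with T1 replicate C at 4.22 and the other 5 libraries from 1.51 to 2.43. By E-L 38 the T8 score was 2.8 ± 0.43, again above every T2 library, whose average was 1.94 ± 0.05 (exact permutation p = 0.1). The 2S albumin VIT_219s0177g00090, one of the 6 genes, had a mean of 19632 FPKM in T1 and 1898 FPKM in T2 at E-L 31. VIT_214s0128g00200 (8611.05 and 1325.36 FPKM) and VIT_206s0004g03260 (301.02 and 26.97 FPKM) were also far higher in T1. The rest of the 6 contributed less: VIT_207s0005g04460 was at 23.84 and 14.14 FPKM and VIT_214s0128g00210 at 0.81 and 0.23 FPKM. VIT_207s0005g04680 was lower in T1 (1.94 and 4.02 FPKM).

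Only 1 of the 7 ACC synthase genes was tested, VIT_202s0025g00360. In T2 it stood at 75.81, 58.03 and 62.61 FPKM at E-L 29, at 34.47, 40.95 and 39.99 FPKM at E-L 31, at 5.68, 5.05 and 9.82 FPKM at E-L 35 and at 2.39, 0.48 and 1.59 FPKM at E-L 36 (replicates A, B and C). It was high in green berries and low from E-L 36 on, with means of 1.72 ± 1.78 FPKM at E-L 37 and 1.06 ± 0.0814 FPKM at E-L 38. Its level fell from E-L 31 to 35, with a log2 fold change of -2.37 and an SE of 0.37 (adjusted p = 3e-06), and the change from E-L 35 to 36 was -1.69 ± 0.37 (adjusted p = 0.0012). All log2 fold changes are on the log2(FPKM + 1) scale, all adjusted p-values are from limma with Benjamini-Hochberg adjustment over 21902 genes, and a member counts as called at an adjusted p under 0.05.

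The same ACC synthase was higher than in T2 at E-L 35 and 36 in T1 and at E-L 36 and 37 in T8, whose bags came off at E-L 36. In T1 at E-L 35 it was at 25.36, 21.77 and 15.8 FPKM, all above the T2 libraries, a log2 fold change of 1.51 ± 0.37 (adjusted p = 0.0062, and 0.11 with a pseudocount of 0.1). At E-L 36 it was at 4.46, 4.79 and 6.29 FPKM in T1 and at 8.88, 6.09 and 9.86 FPKM in T8, so that neither group overlapped with T2. The log2 fold change against T2 was 1.38 ± 0.37 in T1 (adjusted p = 0.041) and 1.96 ± 0.37 in T8 (adjusted p = 0.00049). At E-L 37 the T8 libraries, at 3.94, 3.48 and 7.43 FPKM, overlapped with T2 replicate A at 3.61 FPKM, and the log2 fold change was 1.31 ± 0.37 (adjusted p = 0.032). The difference between T1 and T2 at E-L 31 (59.11 ± 2.97 and 38.47 ± 3.5 FPKM) did not pass the test, nor did those in T1 at E-L 37 (-0.01, adjusted p = 1.0) and E-L 38 (-0.32, adjusted p = 0.99) or in T8 at E-L 38 (0.14).

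VIT_211s0016g02380, described as ACC oxidase 1, peaked at the onset of ripening in the light. In T2 it was at 1.64, 1.15 and 1.23 FPKM at E-L 31, at 57.38, 69.2 and 41.85 FPKM at E-L 35 and at 21.67, 9.26 and 3.29 FPKM at E-L 36. Its rise from E-L 31 to 35 was a log2 fold change of 4.59 ± 0.36 (adjusted p = 3.3e-12), and it fell again by E-L 36, by 2.49 on the log2 scale (SE 0.36, adjusted p = 6.1e-06). In T1 at E-L 35 it was at 3.71, 3.29 and 8.15 FPKM, every library below every T2 library, which was the largest fall of any tested member in that comparison, -3.30 ± 0.36 (adjusted p = 1.2e-07). From E-L 36 on its means lay between 6.51 and 12.59 FPKM in all 3 treatments, and no difference between treatments passed the test. ACC synthase and this ACC oxidase thus differed from T2 in opposite directions in T1 at E-L 35.

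**Figure D1:**
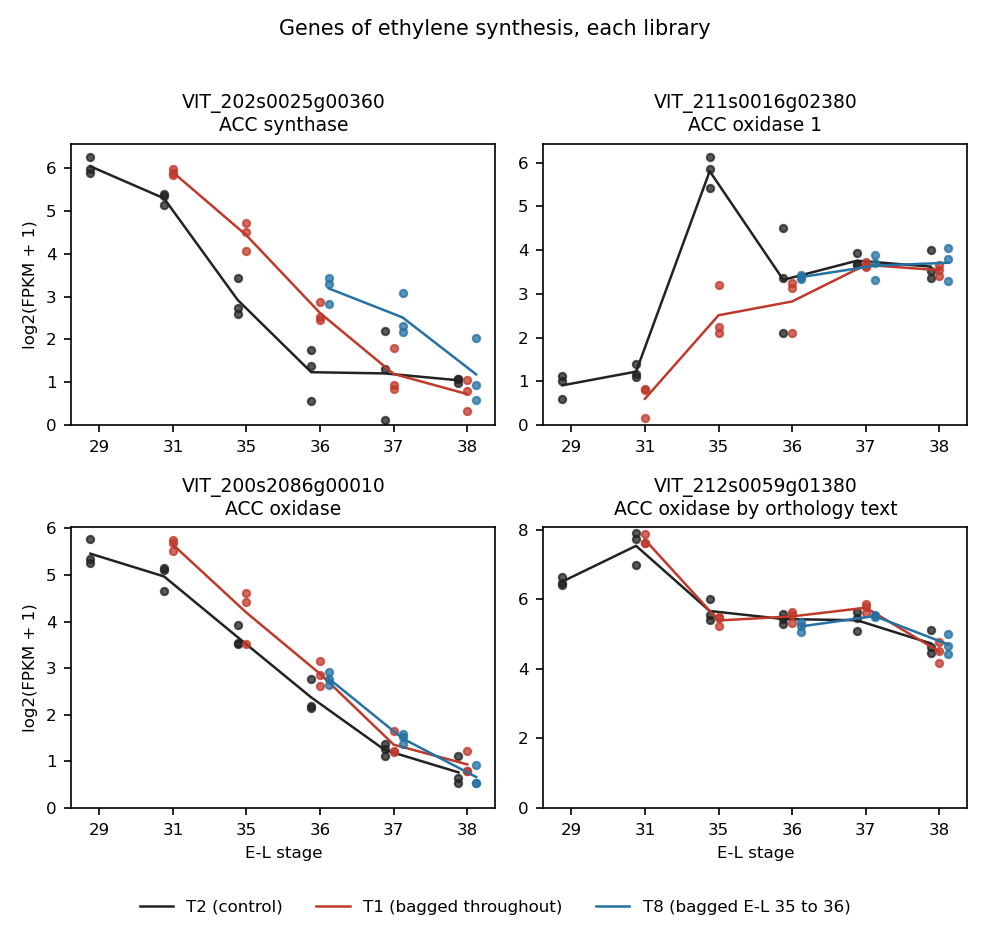
Levels of 4 genes of ethylene synthesis in log2(FPKM + 1) by E-L stage, with a point for each library (3 per group) and lines through the means of T2 (black), T1 (red) and T8 (blue). The ACC oxidase VIT_211s0016g02380 reached 41.85 to 69.2 FPKM in T2 at E-L 35 and 3.29 to 8.15 FPKM in T1.

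The other ACC oxidases at 5 FPKM or more were high in green berries. VIT_200s2086g00010, described as an ACC oxidase, fell in T2 from 43.45 ± 8.72 FPKM at E-L 29 to 0.73 ± 0.379 FPKM at E-L 38, with a called step from E-L 31 to 35 (-1.30 ± 0.22, adjusted p = 1e-05), from 35 to 36 (-1.29 ± 0.22, adjusted p = 6.5e-05) and from 36 to 37 (-1.13 ± 0.22, adjusted p = 0.00017). In T1 at E-L 31 it was at 50.42, 53.12 and 44.69 FPKM against 33.68, 34.29 and 24.09 FPKM in T2, a log2 fold change of 0.68 ± 0.22 (adjusted p = 0.019). VIT_212s0059g01380, the member whose BLAST text names aconitase, had the highest level of the class, 190.74 ± 58.3 FPKM in T2 and 208.7 ± 22.4 FPKM in T1 at E-L 31, and fell by 1.87 on the log2 scale from E-L 31 to 35 in T2 (SE 0.19, adjusted p = 1.2e-09). VIT_205s0049g00390, VIT_205s0049g00400 and VIT_205s0049g00410, whose first term is another dioxygenase, declined in T2 from means of 36.58, 48.45 and 33.83 FPKM at E-L 31 to 4.87, 4.08 and 5.6 FPKM at E-L 38. At E-L 36 VIT_205s0049g00400 and VIT_205s0049g00410 were higher in T8 than in T2, each by 0.67 on the log2 scale (adjusted p = 0.003 and 0.0058). VIT_205s0049g00390 was lower in T1 at E-L 31 (-0.67 ± 0.19, adjusted p = 0.0074) and was the 1 member called in T1 at E-L 38, at 2.1 ± 0.572 against 4.87 ± 0.868 FPKM (-0.93 ± 0.19, adjusted p = 0.0084). The ACC deaminase VIT_217s0000g00870 had means from 8.68 to 26.93 FPKM and was highest in T2 at E-L 31. It was called in no comparison of treatments within a stage. Its T1 effect was, however, higher at E-L 35 than at E-L 31 (difference of 0.54 ± 0.18, adjusted p = 0.03).

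Of the 8 receptors, 5 reached 5 FPKM, and they followed more than 1 course. VIT_205s0049g00090 rose in T2 from 11.8 ± 1.07 FPKM at E-L 29 to 49.66 ± 10.1 FPKM at E-L 31 (1.97 ± 0.13, adjusted p = 8.9e-14), fell to 8.38 ± 0.597 FPKM at E-L 35 (-2.41 ± 0.13, adjusted p = 1.9e-15) and rose again from E-L 37 to 38 (0.77 ± 0.13, adjusted p = 5.3e-05). VIT_214s0081g00630 and VIT_219s0093g00580 were at 13.66 ± 2.73 and 10.61 ± 1.54 FPKM at E-L 31 and at 21.67 ± 0.644 and 20.14 ± 0.955 FPKM at E-L 38, and both had a called rise from E-L 36 to 37 (adjusted p = 0.027 and 0.037). VIT_207s0005g00850, described as ethylene receptor 2, was lowest in T2 at E-L 36, at 13.7, 11.74 and 8.66 FPKM. There it was higher in both bagged treatments, at 17.21, 14.42 and 16.43 FPKM in T1 (0.48 ± 0.13, adjusted p = 0.045) and at 20.88, 17.18 and 15.99 FPKM in T8 (0.63 ± 0.13, adjusted p = 0.0012), with no overlap with T2. It was the only receptor called at E-L 36. In T1 at E-L 31, 3 receptors were called higher, beside 13% of all genes tested. They include VIT_204s0043g00690, which BLAST describes as the response regulator ARR22. The libraries of VIT_204s0043g00690 (10.22 ± 12.3 FPKM in T1 and 2.43 ± 4.21 FPKM in T2) and VIT_219s0014g04420 (means of 3.08 and 0.28 FPKM) overlapped, and VIT_206s0004g05240 had means of 2.22 and 0.89 FPKM.

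EIN2 was represented by VIT_208s0040g01730, whose mean in T2 was 32.06 ± 3.5 FPKM at E-L 31 and 59.24 ± 4.83 FPKM at E-L 38. Its rise from E-L 31 to 35 was called (0.33 ± 0.09, adjusted p = 0.0036). At E-L 36 the T8 libraries, at 56.68, 57.49 and 63.18 FPKM, lay above the T2 libraries at 43.58, 45.96 and 43.94 FPKM (0.40 ± 0.09, adjusted p = 0.0034). The EIN3 gene VIT_213s0047g00250 was among the 3 most abundant members, with a mean of 242.17 FPKM over all libraries. In T2 it rose from 273.56 ± 32.9 FPKM at E-L 29 to 356.26 ± 5.45 FPKM at E-L 31, fell to 198.13 ± 24.5 FPKM at E-L 35 (-0.85 ± 0.10, adjusted p = 2.3e-08) and then stayed between 187.26 and 203.27 FPKM. All 3 tested EIN3 genes were higher in T8 than in T2 at E-L 36, where 9.27% of all genes tested were called higher and the seed marker score was higher as well. VIT_213s0047g00250 was at 283.23, 263.86 and 268.0 FPKM in T8 against 190.51, 185.2 and 186.08 FPKM in T2 (0.53 ± 0.10, adjusted p = 0.00047), VIT_206s0009g01380 at 9.1 ± 1.6 against 5.13 ± 0.358 FPKM (0.71 ± 0.15, adjusted p = 0.0011) and VIT_206s0004g01610 at 5.29 ± 0.462 against 3.27 ± 0.546 FPKM (0.56 ± 0.17, adjusted p = 0.025). With the score as a covariate, a fit added after the data were seen, these were 0.61 (adjusted p = 0.0086), 0.74 (adjusted p = 0.031) and 0.33 (adjusted p = 0.46), and EIN2 was at 0.54 (adjusted p = 0.0097) and ethylene receptor 2, VIT_207s0005g00850, at 0.78 (adjusted p = 0.0091). By E-L 37 VIT_213s0047g00250 was at 210.23 ± 17.2 FPKM in T8 and 194.38 ± 12.5 FPKM in T2, a difference that did not pass the test.

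The EIN3-binding F-box genes, whose Arabidopsis counterparts target EIN3 for degradation, moved both ways through development in the light. Of the 8 tested, 5 fell from E-L 31 to 35, 3 rose from E-L 35 to 36 and 5 rose from E-L 36 to 37, beside 35.7%, 10.6% and 24.6% of all genes tested. VIT_204s0008g05470 went from 11.16 ± 0.959 FPKM at E-L 35 through 18.82 ± 1.66 and 33.5 ± 1.0 to 44.27 ± 3.51 FPKM at E-L 38, with each of these 3 steps called (adjusted p = 8.9e-05, 6.4e-06 and 0.018). VIT_211s0016g05410, the most abundant of the class, was highest at E-L 31, at 89.68 ± 16.6 FPKM in T2 and 90.87 ± 13.4 FPKM in T1, fell to 31.64 ± 2.78 FPKM at E-L 35 in T2 (-1.46 ± 0.12, adjusted p = 5.6e-12) and rose to 54.95 ± 1.28 FPKM at E-L 36 (0.78 ± 0.12, adjusted p = 1.1e-05). VIT_219s0090g00450 rose from E-L 36 to 37 (0.68 ± 0.20, adjusted p = 0.0089) and reached 16.55 ± 0.467 FPKM at E-L 38. VIT_209s0002g08270, described by BLAST as another F-box protein with leucine-rich repeats, rose from 22.63 ± 1.01 to 38.27 ± 1.71 FPKM between E-L 36 and 37 (adjusted p = 0.00012). VIT_211s0118g00480 was called in T8 at E-L 36, at 17.82 ± 2.1 FPKM against 11.63 ± 0.354 FPKM in T2 (0.57 ± 0.18, adjusted p = 0.033, and 0.23 with the seed score as a covariate). VIT_207s0031g00340 was at 3.96 ± 0.621 FPKM in T1 and 6.6 ± 0.32 FPKM in T2 at E-L 31 (-0.62 ± 0.22, adjusted p = 0.035).

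**Figure D2:**
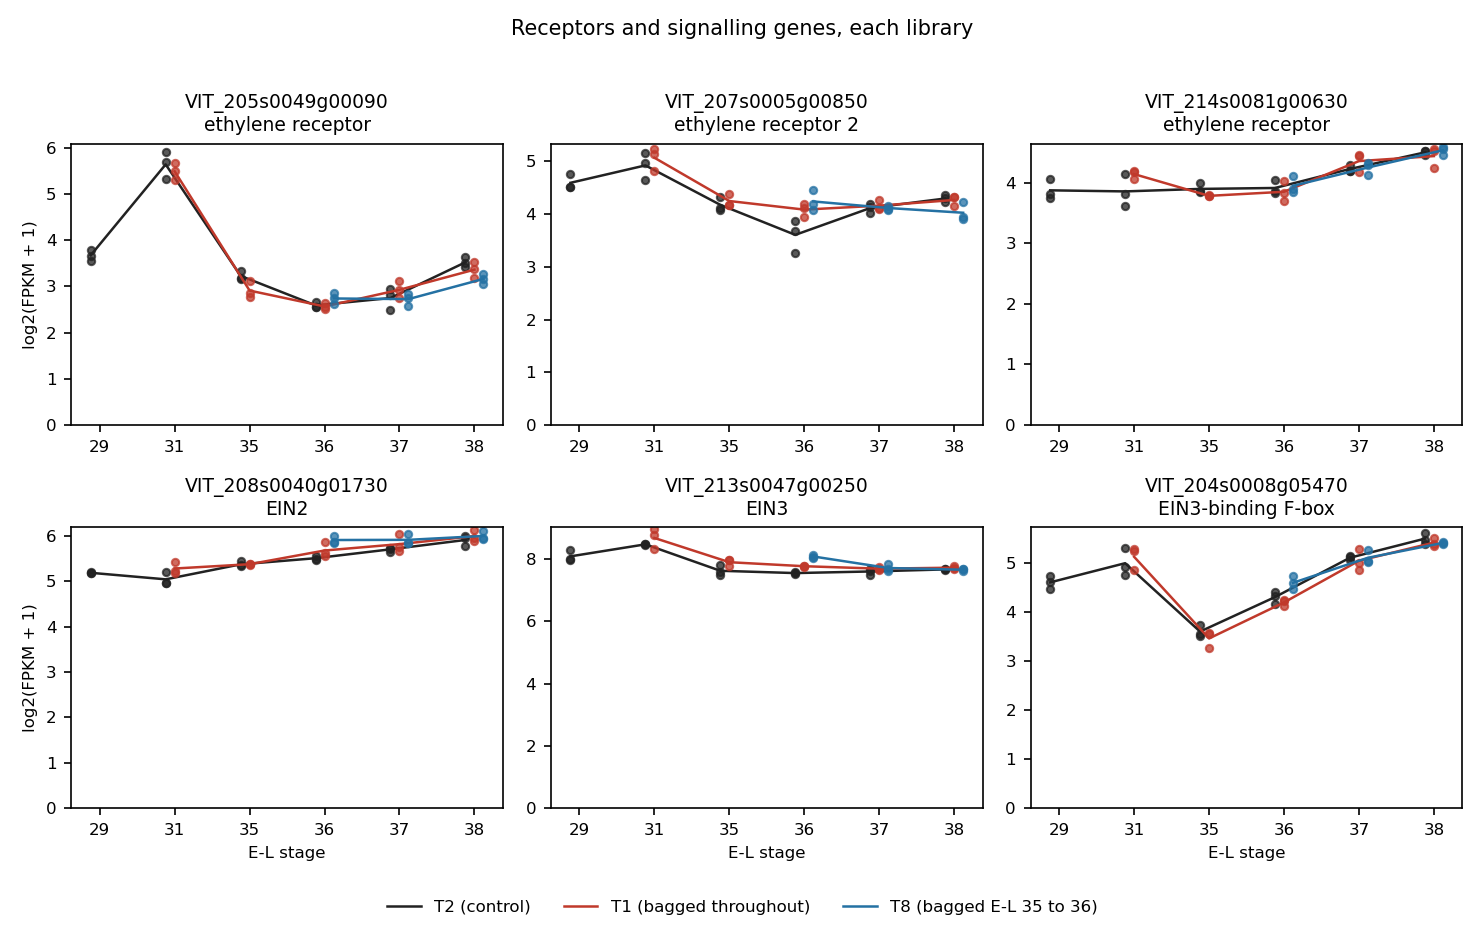
Levels of 3 receptors, EIN2, EIN3 and an EIN3-binding F-box gene in log2(FPKM + 1) by E-L stage, with a point for each library (3 per group) and lines through the means of T2 (black), T1 (red) and T8 (blue). At E-L 36 the T8 points of EIN2 (56.68 to 63.18 FPKM) and EIN3 VIT_213s0047g00250 (263.86 to 283.23 FPKM) lie above those of T2.

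The most abundant member was VIT_205s0049g00510, of the orthology term ERF 1, with a mean of 1814.54 FPKM over all libraries. Its group means in T2 spanned 9.41 on the log2 scale, the widest range of any tested member. It was at 9.01, 2.93 and 1.36 FPKM at E-L 29, at 79.67, 55.17 and 346.02 FPKM at E-L 31, at 2595.37, 3299.66 and 2823.83 FPKM at E-L 35 and at 3193.08, 2865.27 and 3174.46 FPKM at E-L 36. The 2 early steps were 4.68 ± 0.41 (adjusted p = 3.4e-11) and 4.64 ± 0.41 (adjusted p = 5.8e-11). In T1 at E-L 31 it was at 12.65, 7.34 and 21.35 FPKM, below all 3 T2 libraries, a log2 fold change of -3.09 ± 0.41 (adjusted p = 1.2e-06, and 0.06 with only the 6 libraries compared in the fit). At E-L 35 the T1 libraries, at 1969.07, 1639.26 and 2265.51 FPKM, still lay below the T2 libraries, but the log2 fold change of -0.57 ± 0.41 did not pass the test (adjusted p = 0.43). At E-L 36 the T8 libraries stood at 1589.38, 2258.83 and 2177.61 FPKM, a difference from T2 that did not pass the test either.

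After E-L 31 the other tested genes of the term were at far lower levels. VIT_207s0005g03260 and VIT_207s0005g03230 were at 18.11 ± 7.16 and 23.05 ± 12.3 FPKM at E-L 31 and below 1 FPKM at every later T2 stage, with a rise of 3.46 ± 0.39 into E-L 31 for the first (adjusted p = 8.6e-09) and a fall of 3.82 on the log2 scale out of it for the second (SE 0.43, adjusted p = 6.6e-09). Neither was called between T1 and T2 at E-L 31. VIT_214s0081g00730 was called in T8 at E-L 37, at 1.11 FPKM against 0.08 FPKM.

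Among the 93 tested EREBP-like factors the highest levels belonged to VIT_209s0002g00470, described as RAP2-12-like, which in Arabidopsis is a factor of the response to low oxygen. Its mean was 341.71 FPKM over all libraries, its group means lay between 244.26 and 431.59 FPKM, and from E-L 36 on they lay between 316.47 and 338.88 FPKM in all treatments. Next came VIT_212s0028g03270, described as ethylene-responsive transcription factor 4, at 150.66 FPKM, followed by VIT_202s0234g00130 at 102.9 FPKM. VIT_216s0100g00400, VIT_204s0008g06000, VIT_216s0013g01120, VIT_218s0001g05250 and VIT_200s0662g00040 had means from 71.6 to 82.63 FPKM. VIT_202s0234g00130 was at 360.92 ± 53.8 FPKM in T2 at E-L 31 and 26.07 ± 3.2 FPKM at E-L 38.

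Most tested members had their highest T2 level in green berries. The highest T2 mean was at E-L 31 in 53 of 130 members (40.8%, beside 22.1% of all tested genes) and at E-L 29 in 44 (33.8%, beside 34.2%). E-L 38 held the highest mean of 19 members (14.6%, beside 23.5%), among them 5 EIN3-binding F-box genes, 4 receptors and EIN2. E-L 35, 36 and 37 held those of 6, 5 and 3 members (4.6%, 3.8% and 2.3%, beside 4.4%, 4.0% and 11.8% of all tested genes). Summed over all members, FPKM in T2 was 3183.9 at E-L 29, reached 5477.0 by E-L 35 and was 3663.9 by harvest, and VIT_205s0049g00510 made up more than any other member of the sum from E-L 35 on.

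From E-L 29 to 31 in T2, 47 of 130 members rose and 33 fell (36.2% and 25.4%), beside 19.2% and 31.3% of all genes tested. Their median log2 fold change was 0.14, and that of all genes was -0.12. VIT_218s0072g00260, an EREBP-like factor, went from 12.06, 1.97 and 1.99 FPKM to 87.09, 139.16 and 135.77 FPKM (4.61 ± 0.43, adjusted p = 1.2e-10). VIT_207s0031g01980, described as ABR1, a repressor in the abscisic acid response of Arabidopsis, stood at 112.8 ± 13.5 FPKM at E-L 31 and 13.37 ± 8.77 FPKM at E-L 29. In contrast, the 3 largest falls that met the rule for naming were in genes of the run from VIT_216s0013g00890 to VIT_216s0013g01120. Single values within this run are uncertain. VIT_216s0013g01070 went from 35.52 ± 0.847 to 4.93 ± 2.37 FPKM (-2.70 ± 0.40, adjusted p = 1.1e-06). VIT_216s0013g01030 went from 24.63 ± 5.71 to 3.45 ± 1.99 FPKM and VIT_216s0013g00950 from 88.19 ± 18.9 to 16.07 ± 7.67 FPKM (-2.45 ± 0.48, adjusted p = 7.8e-05). In the same run VIT_216s0013g00890, VIT_216s0013g01080, VIT_216s0013g01110 and VIT_216s0013g01120 had their highest T2 mean at E-L 31. VIT_216s0013g01060 had it at E-L 37, and the other tested genes of the run at E-L 29.

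The step from E-L 31 to 35 was a fall for most members. Of 130, 71 fell and 10 rose (54.6% and 7.69%), beside 35.7% and 12.5% of all genes tested, with a median of -0.74 for members and -0.22 for all genes. Scaling the libraries by median ratios moved the median of all genes to -0.06. VIT_218s0072g00260 fell to 3.51, 3.69 and 6.52 FPKM (-4.46 ± 0.43, adjusted p = 3.2e-10) and VIT_207s0031g01980 to 5.37, 5.25 and 9.18 FPKM (-3.94 ± 0.36, adjusted p = 1e-10). Beside VIT_205s0049g00510 and the ACC oxidase VIT_211s0016g02380, the EREBP-like factor VIT_205s0029g00140 rose most, from 8.87, 3.83 and 18.55 FPKM to 58.67, 55.52 and 42.56 FPKM (2.43 ± 0.27, adjusted p = 5.3e-09). VIT_211s0016g03350, with a T2 range of 5.40 on the log2 scale, was at 90.63 ± 6.48 FPKM at E-L 31, 14.32 ± 2.26 FPKM at E-L 35 and 1.31 ± 0.455 FPKM at E-L 38.

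From E-L 35 to 36, 25 members fell and 7 rose (19.2% and 5.38%), beside 10.9% and 10.6% of all genes tested. After the ACC oxidase and the ACC synthase the largest fall was in VIT_207s0005g00820, from 64.49 ± 3.51 to 20.7 ± 4.12 FPKM (-1.61 ± 0.23, adjusted p = 6.7e-06). From E-L 36 to 37, 23 rose and 13 fell (17.7% and 10%), beside 24.6% and 8.98% of all genes tested. The risers included VIT_216s0013g00890, from 2.4 ± 0.578 to 14.15 ± 1.97 FPKM (2.16 ± 0.41, adjusted p = 0.00013), VIT_209s0002g09140, from 1.67 ± 0.107 to 6.68 ± 1.19 FPKM (1.52 ± 0.25, adjusted p = 1.9e-05), and VIT_218s0001g10150, annotated with responses to water deprivation and cold, from 22.76 ± 2.95 to 53.93 ± 4.86 FPKM (1.21 ± 0.17, adjusted p = 1.6e-06).

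The largest falls from E-L 36 to 37 were in 3 EREBP-like factors. Their best hits are Arabidopsis C-repeat binding factors, regulators of cold acclimation, as are those of 10 members in all, a grouping made after the values were seen. Of the 8 tested, 4 fell and none rose in this step, beside 8.98% and 24.6% of all genes tested. Because the grouping was drawn from falls in this step, that count is a description only. In T1 at E-L 31, 4 were lower and none was higher, beside 16% and 13%. None was called in T1 at the later stages or in T8 at E-L 36, and 1 was higher in T8 at E-L 37. Between E-L 36 and 37 VIT_216s0100g00380 went from 25.05 ± 5.73 to 4.82 ± 4.61 FPKM (-2.49 ± 0.40, adjusted p = 1.2e-05), VIT_219s0138g00090 from 38.07 ± 3.48 to 10.88 ± 7.76 FPKM (-1.95 ± 0.46, adjusted p = 0.0012) and VIT_202s0025g04460 from 38.49 ± 1.23 to 11.6 ± 5.58 FPKM (-1.75 ± 0.39, adjusted p = 0.00071). By E-L 38 they were at 1.15 ± 0.554, 2.68 ± 0.24 and 1.77 ± 0.85 FPKM. From E-L 37 to 38, 31 members fell and 9 rose (23.8% and 6.92%), beside 16.1% and 9.64% of all genes tested. VIT_202s0025g04460 fell most (-2.13 ± 0.39, adjusted p = 0.00011), and VIT_203s0063g00460 (-1.93 ± 0.41, adjusted p = 0.00068) and VIT_218s0001g03240 (from 38.19 ± 2.18 to 12.03 ± 3.82 FPKM, -1.63 ± 0.32, adjusted p = 0.00022) fell as well.

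The comparison of T1 with T2 asks how bagging of the clusters changes the genes at each stage. By the study's measurements the bags cut the light, and were also slightly warmer and drier inside than the canopy. Effects of light, temperature and humidity therefore cannot be told apart here, in T8 as in T1. At E-L 31, 12 of 130 members were higher and 21 lower in T1 (9.23% and 16.2%), beside 13% and 16% of all genes tested, so that the members' share lower was near the background. The median log2 fold change was -0.11 for members and 0 for all genes. Leaving out T1 replicate B lowered the count of 33 to 17, and a fit on the 6 libraries compared gave 4. Beside VIT_205s0049g00510, 3 falls met the rule for naming, which asks for no overlap and a call without any 1 library. They were in VIT_204s0008g06000, described as ERF003-like, VIT_216s0100g00400 and VIT_202s0025g01360. VIT_204s0008g06000 was at 12.72, 6.39 and 8.13 FPKM in T1 and at 44.38, 24.65 and 35.8 FPKM in T2 (-1.84 ± 0.17, adjusted p = 1.5e-09). VIT_216s0100g00400, another gene with a C-repeat binding factor as best hit, was at 38.99, 9.55 and 29.87 FPKM in T1 and at 53.5, 57.29 and 59.02 FPKM in T2 (-1.29 ± 0.24, adjusted p = 0.00013). VIT_202s0025g01360 was at 19.28, 8.72 and 21.47 FPKM in T1 and at 38.69, 28.39 and 39.57 FPKM in T2 (-1.14 ± 0.26, adjusted p = 0.0012). In each of the 3 genes T1 replicate B was the lowest library and no T1 library reached the T2 libraries. With only these 6 libraries in the fit, the adjusted p was 0.14 for VIT_216s0100g00400 and 0.097 for VIT_202s0025g01360.

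The largest rise in T1 at E-L 31 was in VIT_205s0077g01860, described as RAP2-3, a factor tied in Arabidopsis to ethylene and low-oxygen responses. It was at 28.55, 184.86 and 64.0 FPKM in T1 and at 2.62, 3.47 and 9.88 FPKM in T2 (3.66 ± 0.42, adjusted p = 9.6e-08). T1 replicate B was highest and T2 replicate C highest within T2 in this gene and in the seed marker score alike. In a fit with the score as a covariate, added after the data were seen, 16 members were called at E-L 31, VIT_205s0077g01860 still among them.

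At E-L 35, where only T1 replicate C stood apart in seed score, 8 members were higher and 5 lower in T1 (6.15% and 3.85%), beside 6.71% and 5% of all genes tested. Besides the ACC synthase and ACC oxidase, VIT_205s0029g00140 was at 19.09, 16.38 and 23.63 FPKM in T1 against 58.67, 55.52 and 42.56 FPKM in T2 (-1.36 ± 0.27, adjusted p = 0.00072). By E-L 36 it was at 31.52 ± 4.83 FPKM in T1 and 26.54 ± 0.221 FPKM in T2. The members called higher included VIT_207s0031g01980, at 17.26 ± 1.76 against 6.6 ± 2.24 FPKM (1.30 ± 0.36, adjusted p = 0.014), VIT_206s0004g08190, at 24.23 ± 6.3 against 13.13 ± 3.79 FPKM (0.84 ± 0.20, adjusted p = 0.0055), and VIT_203s0063g00460, at 18.2 ± 2.16 against 7.93 ± 4.91 FPKM (1.23 ± 0.41, adjusted p = 0.049).

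After E-L 35 few members differed between T1 and T2. At E-L 36 the ACC synthase and ethylene receptor 2 were higher and none was lower (1.54% of members higher), beside 1.07% higher and 1.21% lower of all genes tested, and leaving out any 1 of 4 libraries (T2 replicate B or C, T1 replicate A or C) left 0 calls. At E-L 37 limma called none, with 12 members at an unadjusted p under 0.05 (6 higher and 6 lower), beside 0.53% of all genes tested called higher and 3.35% lower. At E-L 38 the 1 call was the fall of VIT_205s0049g00390, beside 0.0639% higher and 0.516% lower of all genes tested, and it was lost without T2 replicate B, T1 replicate A or T1 replicate C.

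**Figure D3:**
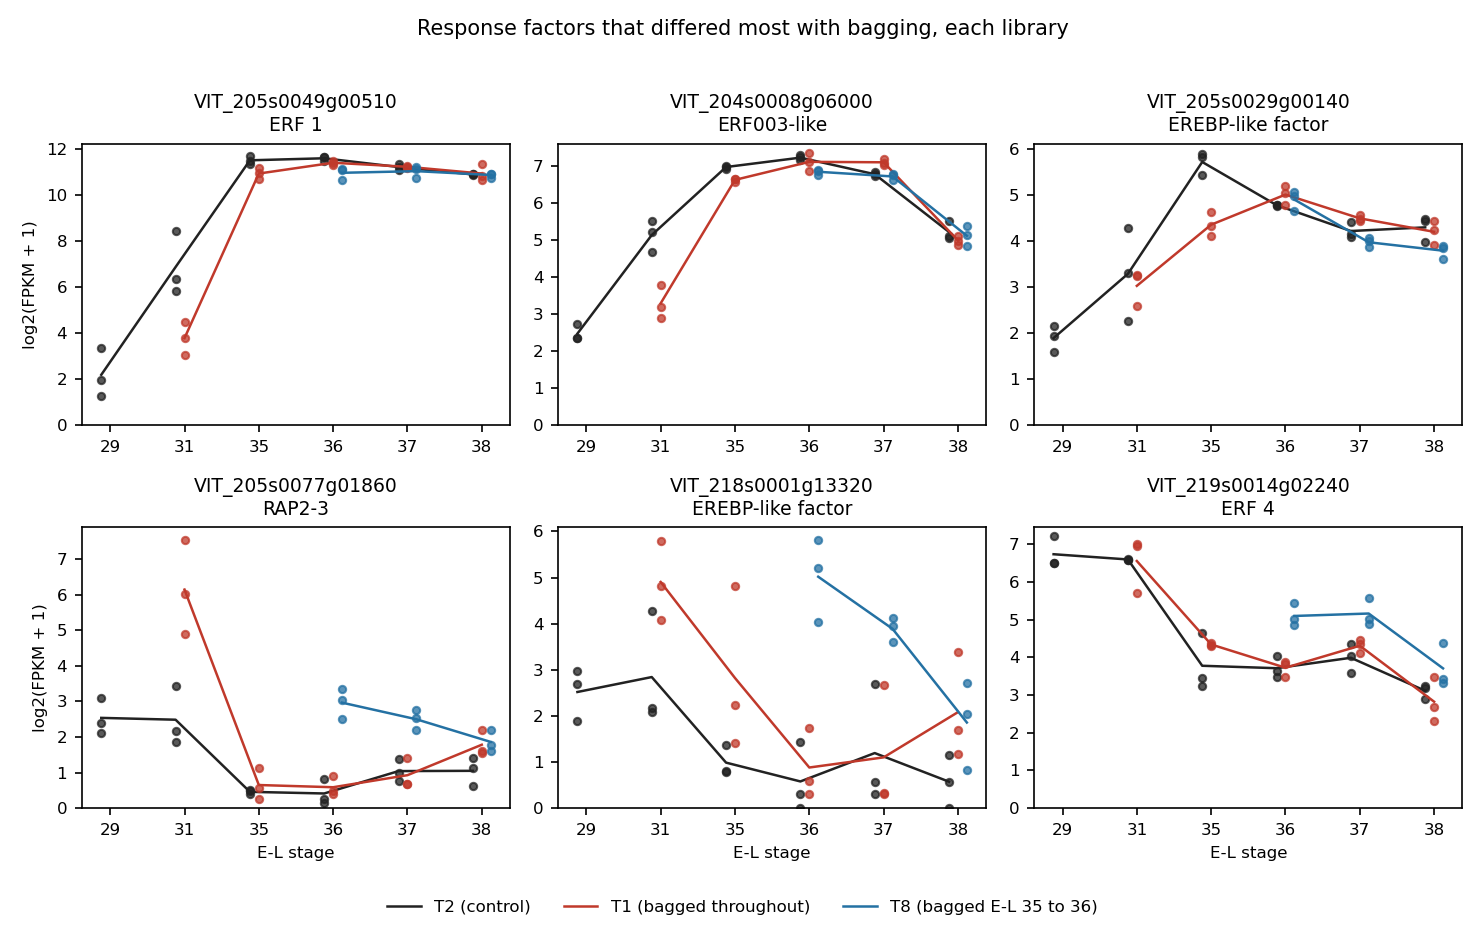
Levels of 6 response factors that differed with bagging in log2(FPKM + 1) by E-L stage, with a point for each library (3 per group) and lines through the means of T2 (black), T1 (red) and T8 (blue). VIT_205s0049g00510 and VIT_204s0008g06000 lie lower in T1 at E-L 31, and VIT_205s0077g01860, VIT_218s0001g13320 and VIT_219s0014g02240 lie higher in T8 at E-L 36.

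The comparison of T8 with T2 asks what a bag kept on from E-L 35 to 36 and then removed does. At E-L 36, 21 of 130 members were higher in T8 and 1 was lower (16.2% and 0.769%), beside 9.27% and 2.64% of all genes tested. The median log2 fold change was 0.22 for members and 0.07 for all genes. The 21 comprised 12 EREBP-like factors, 3 EIN3 genes, 2 ACC oxidases, the ACC synthase, EIN2, ethylene receptor 2 and 1 EIN3-binding F-box gene. The 1 lower member was VIT_210s0003g02490, at 0.53 ± 0.255 against 2.28 ± 0.976 FPKM. It is grouped with the ACC oxidases by a later orthology term, and BLAST describes it as RAD17-like. With the seed marker score as a covariate, added after the data were seen, 10 members were called.

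The largest rise in T8 at E-L 36 was in VIT_218s0001g13320, an EREBP-like factor whose best hit encodes DREB2A, a factor of the drought and heat response in Arabidopsis. It was at 54.88, 35.97 and 15.43 FPKM in T8 and at 0.0, 0.24 and 1.68 FPKM in T2 (4.44 ± 0.77, adjusted p = 0.00018). VIT_205s0077g01860 (RAP2-3) was at 9.18, 7.2 and 4.72 FPKM in T8 and at 0.1, 0.2 and 0.78 FPKM in T2 (2.56 ± 0.42, adjusted p = 9.3e-05). In both genes T8 replicate A was highest and C lowest, which is also the order of their seed marker scores of 5.32, 4.94 and 3.92. Over the 42 libraries the deviations of these 2 genes from their group means went with those of the seed marker score (Pearson r of 0.86 and 0.74, as a description, since libraries share their composition), and another member, VIT_218s0072g00260, was at r = 0.50. These were 3 of 130 members (2.31%) at r of 0.5 or more, beside 2.21% of all tested genes. With the score as a covariate the log2 fold change at E-L 36 was 1.03 for VIT_218s0001g13320 (adjusted p = 0.32) and 0.99 for VIT_205s0077g01860 (adjusted p = 0.16).

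**Figure D4:**
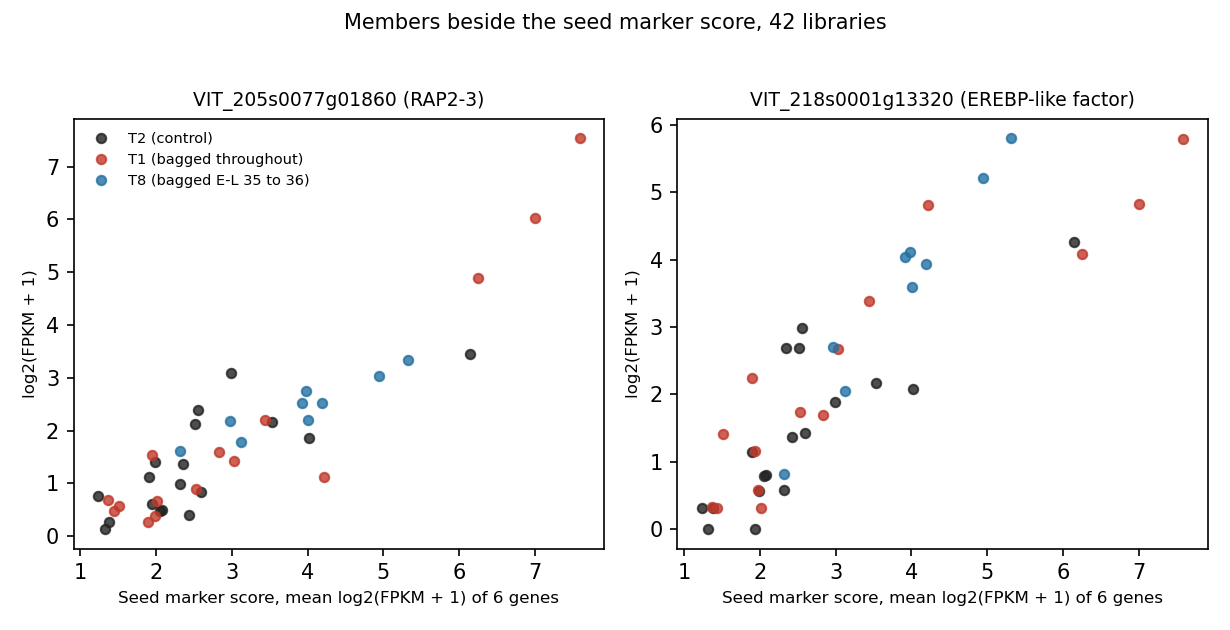
Level of VIT_205s0077g01860 and VIT_218s0001g13320 in log2(FPKM + 1) against the seed marker score (average over 6 seed storage protein genes, same scale), with a point for each of the 42 libraries of T2 (black), T1 (red) and T8 (blue). The libraries with scores from 6.25 to 7.59 are those of T1 at E-L 31, and the deviations from group means correlate at 0.74 and 0.86.

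The following members, also higher in T8 at E-L 36, had lower correlations with the seed score. VIT_219s0014g02240, described as ethylene-responsive transcription factor 4, a repressor in Arabidopsis, was at 42.28, 31.33 and 27.77 FPKM in T8 and at 15.26, 10.08 and 11.5 FPKM in T2 (1.39 ± 0.33, adjusted p = 0.0043), with r = 0.23 to the score. VIT_210s0003g00130 was at 4.64, 4.68 and 5.9 FPKM against 1.94, 0.71 and 2.1 FPKM (1.28 ± 0.30, adjusted p = 0.004), with r = 0.22. With the score as a covariate these log2 fold changes were 1.00 (adjusted p = 0.21) and 0.94 (adjusted p = 0.20), and that of the ACC synthase was 1.67 (adjusted p = 0.054). VIT_218s0001g10150 was at 57.02, 47.26 and 37.43 FPKM in T8 against 25.8, 19.92 and 22.55 FPKM in T2 (1.01 ± 0.17, adjusted p = 0.00012), with r = 0.28. In this gene and in VIT_219s0014g02240, T8 replicate A was again highest and C lowest, the order of the seed marker scores. VIT_211s0016g00670, with r = 0.42, had means of 30.11 FPKM in T8 and 3.24 FPKM in T2.

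At E-L 37, 11 members were higher in T8 and 1 was lower (8.46% and 0.769%), beside 3.16% and 2.48% of all genes tested, with medians of 0.1 and -0.04. Of these 11, 8 had also been higher at E-L 36 (8 of 21), the ACC synthase, VIT_218s0001g13320, VIT_205s0077g01860, VIT_218s0072g00260, VIT_207s0031g01980 and VIT_219s0014g02240 among them. The smallest adjusted p of the 11 was that of VIT_204s0043g00610, at means of 2.77 FPKM in T8 and 0.11 FPKM in T2 (1.77 ± 0.21, adjusted p = 6.6e-06). VIT_211s0016g00670 had means of 13.58 and 2.02 FPKM (2.52 ± 0.77, adjusted p = 0.047). VIT_219s0014g02240 stood at 31.3, 28.83 and 46.79 FPKM in T8 and at 15.4, 19.49 and 10.92 FPKM in T2 (1.17 ± 0.33, adjusted p = 0.03). VIT_218s0072g00260 stood at 11.79, 14.46 and 12.43 FPKM against 3.13, 4.99 and 2.12 FPKM (1.70 ± 0.43, adjusted p = 0.016). VIT_216s0100g00380, the C-repeat binding factor relative that fell at this step in T2, was at 15.95 ± 0.465 FPKM in T8 and 4.82 ± 4.61 FPKM in T2 (1.89 ± 0.40, adjusted p = 0.0046). The count of 12 fell to 3 without T2 replicate C or T8 replicate B, to 5 without T8 replicate C, to 7 without T2 replicate A or T8 replicate A, and to 4 with the seed marker score as a covariate. At E-L 38 limma called none, with 21 members at an unadjusted p under 0.05 (12 higher and 9 lower), beside 0.0457% of all genes tested called higher and 0.0228% lower.

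T8 was also set against T1 at E-L 36, where T1 had been bagged since E-L 29 and T8 since E-L 35. There 15 members were higher in T8 and none was lower (11.5%), beside 5.45% higher and 0.575% lower of all genes tested. This comparison shares its T8 libraries with that against T2. VIT_218s0001g13320 was at 0.5, 0.24 and 2.35 FPKM in T1 (4.14 ± 0.77 in T8 against T1, adjusted p = 0.00076) and VIT_205s0077g01860 at 0.31, 0.39 and 0.86 FPKM (2.38 ± 0.42, adjusted p = 0.00041). VIT_219s0014g02240 was at 13.11, 10.2 and 13.64 FPKM in T1, below all T8 libraries (1.37 ± 0.33, adjusted p = 0.008). The count of 15 was 4 without T8 replicate A, 6 without T1 replicate B, 8 without T1 replicate C, 9 without T8 replicate C and 0 with the seed marker score as a covariate.

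**Figure D5:**
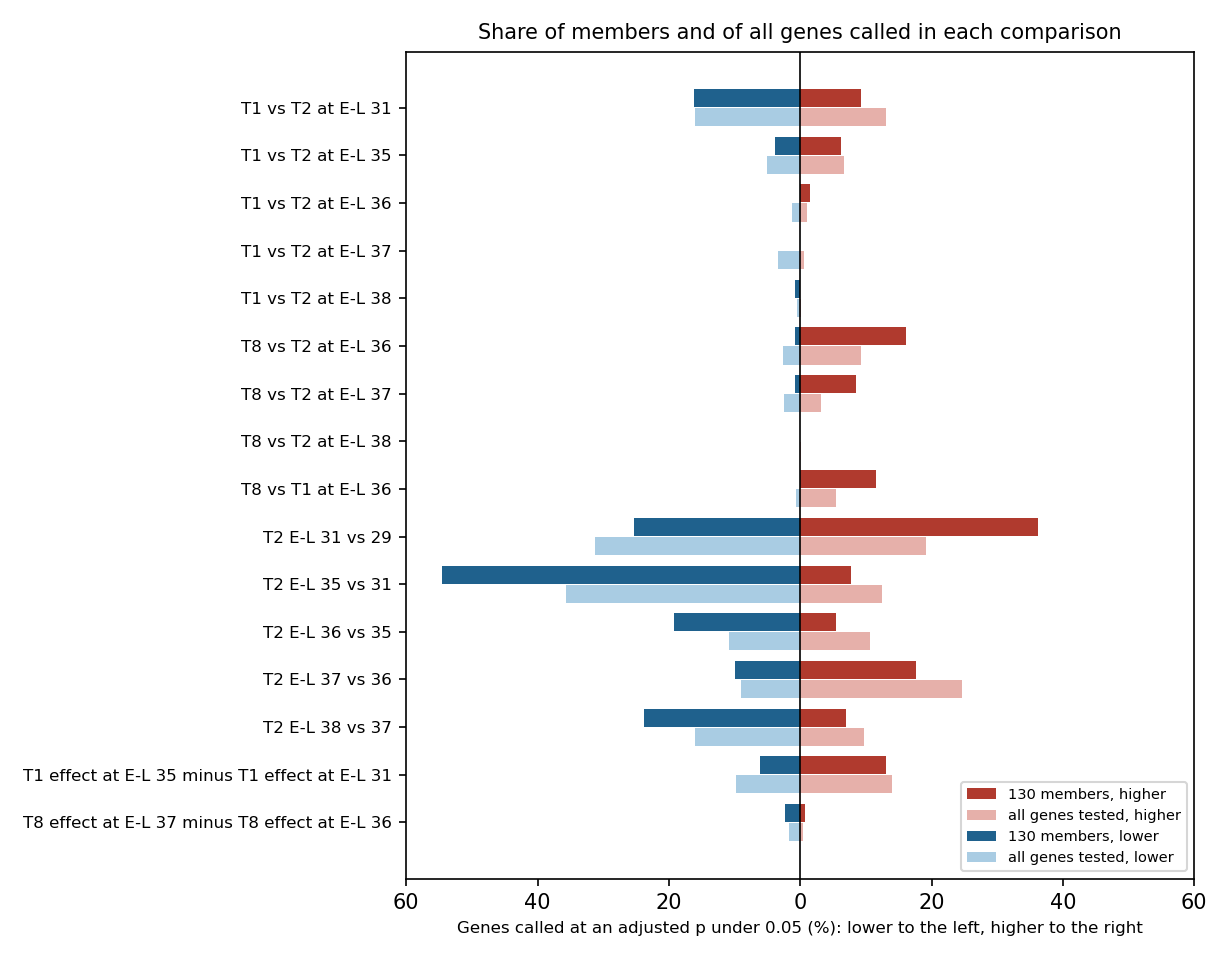
Percentage of the 130 tested members (dark bars) and of all 21902 tested genes (pale bars) called higher (to the right) or lower (to the left) at an adjusted p under 0.05 in each of 16 comparisons. In T8 at E-L 36, 16.2% of members and 9.27% of all genes were higher, and from E-L 31 to 35 in T2, 54.6% of members and 35.7% of all genes fell.

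Whether the effect of a bag differed between stages was tested as a difference of log2 fold changes. For T1, 17 members had a higher effect at E-L 35 than at E-L 31 and 8 a lower one (13.1% and 6.15%), beside 14% and 9.75% of all genes tested. The effect on the ACC oxidase VIT_211s0016g02380 was -0.62 ± 0.36 at E-L 31 and -3.30 ± 0.36 at E-L 35, a difference of -2.67 ± 0.51 (adjusted p = 0.00023). The effect on VIT_205s0077g01860 was lower at E-L 35 by 3.47 on the log2 scale, -3.47 ± 0.59 (adjusted p = 7.5e-05). VIT_204s0008g06000 (1.5 ± 0.24, adjusted p = 3.4e-05), VIT_206s0004g08190 (1.48 ± 0.29, adjusted p = 0.00033) and VIT_216s0100g00400 (1.72 ± 0.34, adjusted p = 0.00035) went the other way. So did VIT_205s0049g00510, with the largest called difference in that direction (2.52 ± 0.58, adjusted p = 0.0019). The count of 25 was 40 without T1 replicate A at E-L 31 and 15 without T1 replicate B at E-L 35. For T8, 1 member had a higher effect at E-L 37 than at E-L 36 and 3 a lower one (0.769% and 2.31%), beside 0.393% and 1.73% of all genes tested. The 3 were VIT_206s0004g08190 (-1.44 ± 0.29, adjusted p = 0.0069), VIT_218s0001g10150 (-1.15 ± 0.24, adjusted p = 0.0089) and VIT_205s0049g00400 (-1.03 ± 0.22, adjusted p = 0.0094).

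Genes of the pathway that the rule did not take in were taken by their own orthology terms. Of 39 tested genes of the term CTR1, 10 were higher and 2 lower in T1 at E-L 31, and 6 were higher and 1 lower in T8 at E-L 36, beside 13% and 16%, and 9.27% and 2.64%, of all genes tested. Among them, VIT_218s0001g07700 was at 15.42 ± 4.35 FPKM in T8 and 1.76 ± 0.08 FPKM in T2 at E-L 36 (2.54 ± 0.40, adjusted p = 4.6e-05). The seed marker score was also higher in T8 in that comparison. Of 6 tested S-adenosylmethionine synthetases, which make the precursor of ACC, 2 were lower in T1 at E-L 31, 2 were higher at E-L 35, and in T2 4 fell from E-L 31 to 35, beside 16%, 6.71% and 35.7% of all genes tested. All 3 tested genes of the term MAPK kinase 4/5 rose from E-L 29 to 31 and fell from E-L 31 to 35 in T2, steps at which 19.2% and 35.7% of all genes tested did so. In T8 at E-L 36, 1 of 3 was higher, beside 9.27% of all genes tested. Of 2 tested MAPK 6 genes, 1 was lower in T1 at E-L 31 and 1 higher at E-L 35, beside 16% and 6.71%.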

How the data were processed

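RNA-seq was analysed in 42 libraries of deseeded berries, in 14 groups of 3 biological replicates taken from GEO's labels. The authors computed FPKM per gene from 50-base single-end reads aligned to version 2 of the PN40024 genome with at most 2 mismatches, with Bowtie per their methods and Bowtie2 2.2.5 per the deposited record. The counting tool is not given in the sources used here. FPKM corrects for length and library size but not for a few genes taking a large share of a library, which lowers all others. Counts were not used here, so read depth per gene is unknown.

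Values were taken as log2(FPKM + 1), with a pseudocount of 1. The 21902 genes with a group mean of at least 1 FPKM were fitted in 1 limma model (limma 3.58.1 with trend, R 4.3.3) with 14 group means, 28 residual and 3.65 prior degrees of freedom, and Benjamini-Hochberg adjustment over all of them. The code was tested on simulated data. Python 3.11.15, pandas 2.3.3, numpy 2.4.6, scipy 1.17.1 and matplotlib 3.10.9 were used for the rest. Group means are given ± SD (n = 3) and log2 fold changes ± SE. The seed marker score was compared by exact permutation tests.

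Members and lists were chosen with earlier results of these data known. Named members were the synthesis, receptor, EIN2, EIN3 and F-box genes with a group mean of at least 5 FPKM; per comparison, up to 5 rises and 5 falls (3 and 3 in T2 steps) that were called, changed by 1 or more on the log2 scale, reached 5 FPKM in a group, did not overlap and were called without any 1 library; up to 3 each way for differences of effects; the 10 with the highest mean; the 5 with the widest T2 range; and those the study names. Other members named were chosen after their values were seen. The replicate letters do not pair the libraries: deviations from group means correlated at 0.002 on average for the same letter (-0.297 to 0.328) and at -0.001 for other letters. The reference table was of another assembly, so no coordinates or sequences are given. Alternatives were a pseudocount of 0.1, no filter, a filter of 5 FPKM, median-of-ratios scaling, a replicate block, only the groups compared, each library left out and, added after the data were seen, the seed marker score as a covariate.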

Additional observations from a re-analysis of the deposited data

Results flagged for a closer look

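The effect of bagging differed between stages by a limma test of the difference itself in 25 members for T1 (E-L 35 against E-L 31) and in 4 members for T8 (E-L 37 against E-L 36). For T1 the log2 differences with the smallest adjusted p were 1.5 in VIT_204s0008g06000, 1.48 in VIT_206s0004g08190 and 1.72 in VIT_216s0100g00400, and -3.47 in VIT_205s0077g01860, -2.67 in VIT_211s0016g02380 and -1.53 in VIT_210s0003g02490 (adjusted p = 0.016). For T8 they were 1.81 in VIT_210s0003g02490 (adjusted p = 0.034), -1.44 in VIT_206s0004g08190, -1.15 in VIT_218s0001g10150 and -1.03 in VIT_205s0049g00400. VIT_210s0003g02490, which BLAST describes as RAD17-like, had group means from 0.38 to 3.24 FPKM. Its call for T8 was lost in 9 of the 12 fits that left out 1 library. Its difference for T1 did not pass without T2 replicate A at E-L 35 (adjusted p = 0.054), T1 replicate C at E-L 31 (adjusted p = 0.063) or T1 replicate B at E-L 35 (adjusted p = 0.056), with only the groups compared (adjusted p = 0.095) or with the seed marker score as a covariate (adjusted p = 0.052).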

How the results depend on the processing

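No named value and no count changed direction under any alternative run. Counts of members called moved by more than 1.5 times as follows. With only the groups compared in the fit, the counts for T1 were 4 (E-L 31), 1 (E-L 36), 2 (E-L 37) and 0 (E-L 38), and 11 in the T1 difference. With a pseudocount of 0.1, 2 were called in T1 at E-L 37, 2 in T1 at E-L 38 and 3 in T8 at E-L 38. With no filter on low values, 0 were called in T1 at E-L 36. With the seed marker score as a covariate, chosen after seeing the data, 16 were called in T1 at E-L 31, 10 in T8 at E-L 36, 4 in T8 at E-L 37 and 0 in T8 against T1. With the replicate letter as a block, 1 was called in T8 at E-L 38 and the other 15 counts stayed within 1.5 times. The cause of these shifts was not tested. Leaving out 1 library gave 17 to 39 calls in T1 at E-L 31, then 9 to 16 (E-L 35), 0 to 2 (E-L 36), 0 to 1 (E-L 37) and 0 to 1 (E-L 38), 15 to 21 in T8 at E-L 36, then 3 to 9 (E-L 37) and 0 to 1 (E-L 38), 4 to 12 in T8 against T1, 66 to 73, 75 to 81, 22 to 29, 29 to 34 and 28 to 34 in the 5 steps of T2, and 15 to 40 and 3 to 6 in the differences for T1 and T8. Of the 33 calls in T1 at E-L 31, 11 were made in every such fit, as were 13 of the 22 in T8 at E-L 36, 2 of the 12 in T8 at E-L 37 and 4 of the 15 in T8 against T1. With only the groups compared, 5 named values no longer passed the test, among them VIT_205s0049g00510 in T1 at E-L 31 (adjusted p = 0.06). With a pseudocount of 0.1, the ACC synthase in T1 at E-L 35 (adjusted p = 0.11) and VIT_216s0013g01030 (adjusted p = 0.052) did not pass, and VIT_211s0016g02380 in T1 at E-L 31 did (-1.38, adjusted p = 0.028). Read depth per gene is unknown, so what depth limits cannot be stated.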
